A study of Mus musculus with 2 samples.

Results

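The cells described here are the mesangial, mural and renin cells of the kidney cortex, that is, the contractile cells that wrap the arterioles, capillaries and glomerular tuft. Barcodes were chosen by the counts of 5 genes, Rgs5, Pdgfrb, Notch3, Itga8 and Ren1, which had to sum to at least 3 unique molecular identifiers (UMIs, each standing for 1 captured transcript). Members also held under 10 UMIs of Col1a1, Col1a2, Col3a1 and Dcn together, and none of Pecam1, Cdh5 or Ptprc, which keeps out fibroblasts, endothelium and leukocytes. The rule found 189 of the 7308 barcodes with at least 200 genes and at most 50% mitochondrial UMIs, out of 10804 barcodes in the files.

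The study prepared cell suspensions from the kidney cortex of mice aged 12 weeks for droplet 3′ RNA sequencing, with 1 library per group. The I-PpoI library came from mice that express I-PpoI, a homing endonuclease that cuts DNA at a fixed recognition site, in podocytes, which form the outer layer of the glomerular filter. The other library came from wild-type mice. The strain, the driver of podocyte expression and the number of mice in each library are not given in the sources used here. The rule uses no podocyte gene. In the mural-led cells defined below, 7 podocyte markers summed to 324 and 278 CPM (UMIs scaled to a fixed total per set of cells), with a UMI in 60 and 54 cells, against 453 and 241 CPM in other barcodes. Podxl and Wt1 were at 0 in both libraries. Over all members the list stood at 219 and 291 CPM, and Wt1 had 9 and 11 UMIs, of which 1 wild-type barcode held 10. With 1 library per group no difference has a replicate check, so values are given for both libraries with 95% intervals that cover counting error only. Fewer transcripts per cell and a different mix of mural cells cannot be told apart in a sum over cells.

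Mural cells keep vessel tone. Vascular smooth muscle contracts through smooth muscle actin (Acta2) and myosin (Myh11), pericytes sit on capillaries and depend on PDGF receptor beta (Pdgfrb) and Notch3, mesangial cells hold the glomerular capillary loops together and carry integrin alpha 8 (Itga8), and juxtaglomerular cells of the afferent arteriole release renin (Ren1), the enzyme that starts the angiotensin cascade. Arteriolar smooth muscle and renin cells share a lineage, and smooth muscle cells can take up renin synthesis when blood pressure or salt falls. Rgs5 encodes a regulator that dampens G protein signals in mural cells.

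The I-PpoI library held 100 members among 4091 kept barcodes, a share of 2.44% (1.99 to 2.97, exact Clopper-Pearson interval). The wild-type library held 89 among 3217, a share of 2.77% (2.23 to 3.39). The ratio of the shares, I-PpoI over wild-type, was 0.884 with an interval of 0.657 to 1.19, which includes 1. Leukocytes with Ptprc, which cannot be members, made up 47.8% of kept I-PpoI and 9.57% of kept wild-type barcodes. The shares depend on them, and a ratio among barcodes without Ptprc was not computed, so the direction is not read as a difference in mural cell number. Members had a median of 5091 UMIs in the I-PpoI library and 5378 in the wild-type library, and a median of 6.11% and 8.08% mitochondrial UMIs. All other kept barcodes had medians of 6711 and 3419 UMIs, so the members were closer in depth between the libraries than the rest of the cells. The 6 cell barcodes that occurred in both libraries included no member. Xist had no UMI in the members of either library, and the Y-linked Ddx3y had 77 and 48.

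The collagen limit removed very different numbers of barcodes in the libraries. In the I-PpoI library 323 kept barcodes reached 3 UMIs of the rule genes and 214 of them (66.3%) had 10 or more collagen UMIs. In the wild-type library these numbers were 110 and 16 (14.5%). Collagen-rich fibroblasts were also more numerous among kept barcodes, at 263 in the I-PpoI library and 22 in the wild-type library. Mural cells that make collagen would be left out by this limit, and how many there were was not tested.

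The genes of the rule were carried unevenly, and what chose the members is given here as a description. In the I-PpoI library Rgs5 had a UMI in 97 of the 100 members, Notch3 in 78, Pdgfrb in 77, Ren1 in 31 and Itga8 in 15. In the wild-type library Rgs5 had a UMI in 82 of 89 members, Notch3 in 78, Pdgfrb in 76, Ren1 in 35 and Itga8 in 27. Itga8, which mesangial cells carry, was thus the sparsest gene of the rule, with 22 UMIs in all I-PpoI members and 55 in all wild-type members. Among the clusters given below it was highest, at 210 CPM, in the one with 6103 CPM of Myh11. Its counts are therefore not read as a measure of mesangial cells. Of 14 further genes on the mesangial list, 9 had at least 30 UMIs in the mural-led cells, among them Serpine2 with 549 and 208 UMIs and Igfbp5 with 775 and 1139, while Tbx18 had none. Mesangial cells were not separated from other mural cells here. Dropping Ren1 from the rule left 99 and 87 members.

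Some members held more tubule-marker than rule-gene UMIs. In 16 I-PpoI members and 9 wild-type members, the UMIs of 25 tubule markers outnumbered those of the rule genes. These barcodes held 50.5% of all member UMIs in the I-PpoI library and 19.3% in the wild-type library, with up to 69825 UMIs in 1 barcode. They lay mostly near the threshold. Of the 9 I-PpoI members with exactly 3 UMIs of the rule genes, just inside, 7 were of this kind, as were 7 of the 8 barcodes just outside with 2 UMIs. In the wild-type library both barcodes just inside and both just outside were of this kind. Of members with 10 or more UMIs of the rule genes, 1 of 76 and 3 of 80 were. The I-PpoI one held 10 rule-gene and 6296 tubule-marker UMIs, with 5941 of Spp1 and 0 of Acta2. The wild-type ones held 117, 47 and 38 rule-gene UMIs beside 130, 172 and 48 tubule-marker UMIs, with 316, 10 and 18 of Acta2. Wild-type barcodes rich in mural genes are thus also among those set apart. The remaining 84 I-PpoI and 80 wild-type members are called mural-led cells below. This division was made after the data were seen, and gene list counts are given for both sets, while values of single genes are those of the mural-led cells unless all members are named. Mural-led cells made up 2.05% and 2.49% of kept barcodes, with a share ratio of 0.826 (0.601 to 1.14), which also depends on the number of leukocytes. Their summed depth was 444956 and 471201 UMIs.

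**Figure D1:**
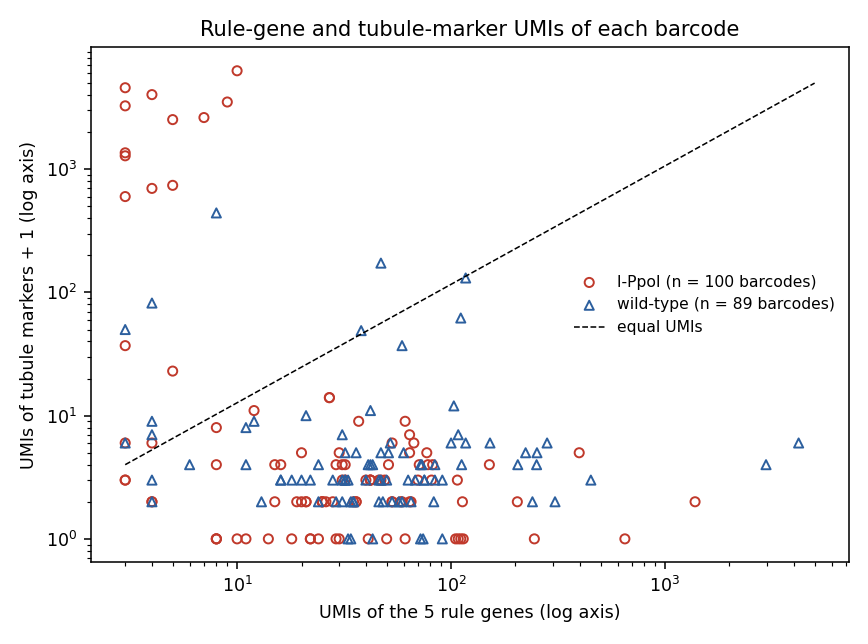
UMIs of the 5 rule genes (x, log axis) against UMIs of 25 tubule markers plus 1 (y, log axis) for each of the 189 members, by library. The 25 barcodes above the dashed line of equal UMIs, 16 from the I-PpoI and 9 from the wild-type library, hold more tubule-marker than rule-gene UMIs.

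The mural-led cells carried arteriolar genes at levels far above those of the other barcodes of the same library. Besides Ren1 and Rgs5, the genes that stood furthest above the rest in both libraries were Rergl, Akr1b7, Rbm24, Pln, Ndst3, Olfr558, Higd1b, Ephx3, Slc38a11 and Gm13861. Pln, phospholamban, restrains the calcium pump of the sarcoplasmic reticulum and reached 629 and 503 CPM in I-PpoI and wild-type mural-led cells, against 1.61 and 1.46 CPM in other barcodes. Akr1b7, an aldo-keto reductase known as a renin cell marker, reached 384 and 499 CPM against 0.905 and 0.452. Since the members were chosen by mural genes, these contrasts describe the cells and test nothing. Collagen fibroblasts differed from them in Pdgfra, the fibroblast PDGF receptor, at 294 and 615 CPM in fibroblasts against 2.25 and 21.2 CPM in mural-led cells. The fibroblast markers Dpt, Lum, Pi16, Mfap5 and Clec3b had no UMI in mural-led cells of either library.

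Smooth muscle genes were present in most mural-led cells, where Acta2 was found in 79 of the 84 I-PpoI and in 73 of the 80 wild-type ones. Acta2 (GRCm38, chromosome 19, 34241090 to 34255590, minus strand) ran from 0 to 26581 CPM per mural-led cell in the I-PpoI library with a median of 7267, and from 0 to 31985 with a median of 5011 in the wild-type library. The libraries overlapped over nearly their whole range. Summed over cells, Acta2 stood at 10495 CPM and 8497 CPM, a ratio of 1.24 (1.18 to 1.29). Over all members the sums were 5303 and 7511 CPM with a ratio of 0.706 (0.678 to 0.736), so the direction of Acta2 turned when the tubule-marker barcodes were left out.

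Myh11 (chromosome 16, 14194535 to 14291372, minus strand), the smooth muscle myosin heavy chain, was lower in the I-PpoI library in both sets. In mural-led cells its median was 1989 CPM per cell in the I-PpoI library and 2616 in the wild-type library, and the sums were 2488 and 4075 CPM with a ratio of 0.611 (0.567 to 0.658). Over all members the ratio was 0.352 (0.327 to 0.378). Tagln, which encodes the actin-binding protein transgelin, had 5814 and 7126 CPM in mural-led cells, with a ratio of 0.816 (0.775 to 0.859). Lmod1, an actin filament nucleator of smooth muscle, had a ratio of 0.623 (0.495 to 0.782). Tpm1, Cald1, Myl9 and Des had ratios of 0.987, 0.996, 1.05 and 1.05, with intervals that included 1.

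As a list, the contractile apparatus differed little once the tubule-marker barcodes were out. Of 6566 genes with at least 30 UMIs over all members, 11.1% were 2-fold or more higher in the I-PpoI library and 6.59% were 2-fold or more lower. Among them 17 of 18 contractile genes were measured, none was 2-fold higher, 6 were 2-fold lower, and the median log2 ratio was -0.91 beside -0.01 for all genes. In mural-led cells 4389 genes were measured, of which 4.33% were 2-fold higher and 4.47% were 2-fold lower, with a median of -0.07. There, none of the 17 contractile genes was past 2-fold in either direction and their median was -0.12. The 6 contractile genes past 2-fold over all members were thus within it once the tubule-marker barcodes were left out.

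**Figure D2:**
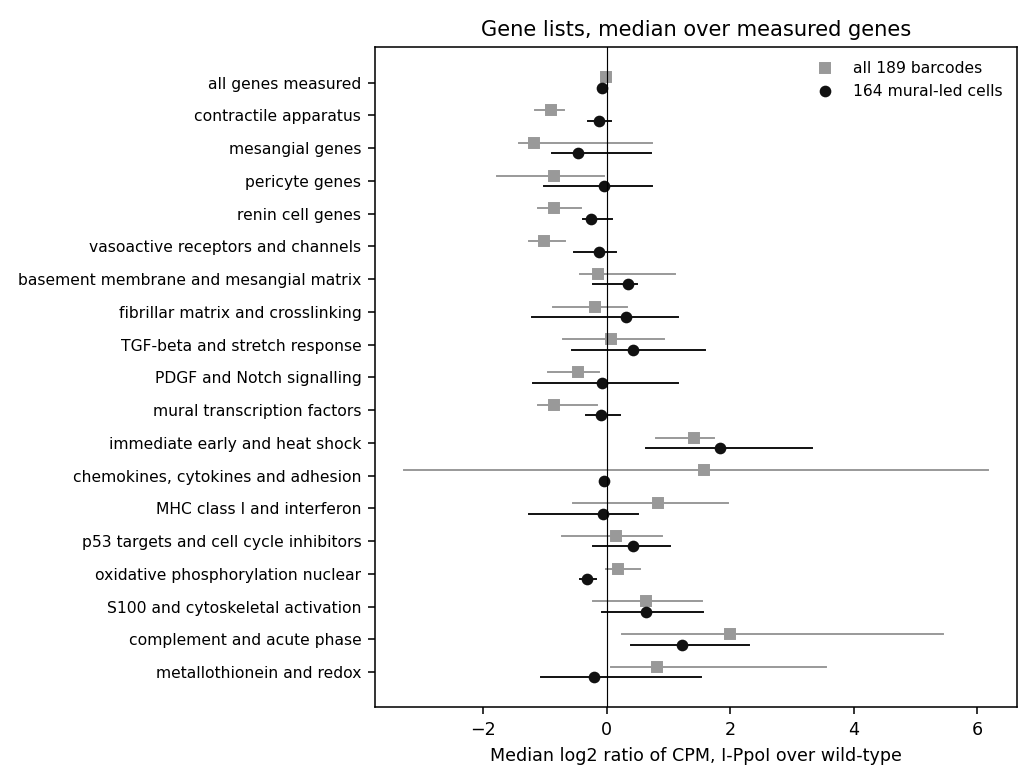
Median log2 ratio of CPM, I-PpoI over wild-type (x), of the measured genes of each list (y), over all 189 members (grey squares) and over the 164 mural-led cells (black circles). Lines span the order-statistic interval over genes, where there are enough genes, and the contractile list moves from -0.91 to -0.12 while the immediate early and heat shock list stays above 1 in both sets.

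Renin was made by a minority of cells at very different levels. Ren1 (chromosome 1, 133350510 to 133360325, plus strand) had no UMI in 54 of 84 mural-led cells of the I-PpoI library and in 46 of 80 of the wild-type library, so the median cell of each library stood at 0. Cells with 10 or more Ren1 UMIs numbered 17 of 84 in the I-PpoI library (20.2%, 12.3 to 30.4) and 23 of 80 in the wild-type library (28.8%, 19.2 to 40). Cells with 100 or more numbered 6 and 7. The boundary of 10 UMIs is a range and not a type, and 5 and 3 cells lay between 7 and 13 UMIs. The highest cell of the I-PpoI library held 1345 Ren1 UMIs and the next 609, and in the wild-type library these held 4131 and 2932. Together the 2 highest cells carried 62.1% of the mural-led Ren1 UMIs in the I-PpoI library and 78.5% in the wild-type library.

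Summed Ren1 was 7077 CPM in I-PpoI and 19106 CPM in wild-type mural-led cells, a ratio of 0.37 (0.356 to 0.386). Over all members the log2 ratio was -2.14. Without the highest cell of each library the ratio in mural-led cells was 0.395, and without the 2 highest it was 0.652 (0.607 to 0.701). When the 4% of barcodes with the highest doublet scores were left out of each library, the direction turned, with a log2 ratio of 0.82 in mural-led cells and 0.11 over all members. That setting removed 5 I-PpoI and 11 wild-type mural-led cells. The shares of cells with Ren1 moved less than the sum. After each cell was thinned to 1000 UMIs, which left out 2 shallower cells of each library, a share of 26.8% (17.6 to 37.8) of the 82 cells left in the I-PpoI library and of 33.3% (23.1 to 44.9) of the 78 in the wild-type library kept a Ren1 UMI. Before thinning the shares were 35.7% and 42.5%. In leukocytes thinned the same way Ren1 had a UMI in 0 of 1939 and 0 of 302 barcodes, which allows shares of up to 0.155% and 0.993%, at median depths of 7750 and 4073 UMIs before thinning, against 4754 and 5361 in mural-led cells. The intervals of the shares overlapped, which is no test of a difference. With 82 and 78 cells from 1 library each, a difference in the share of renin cells was not tested. Some mouse strains carry a second renin gene, Ren2, whose reads could be counted under Ren1, and the strain is not given in the sources used here.

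**Figure D3:**
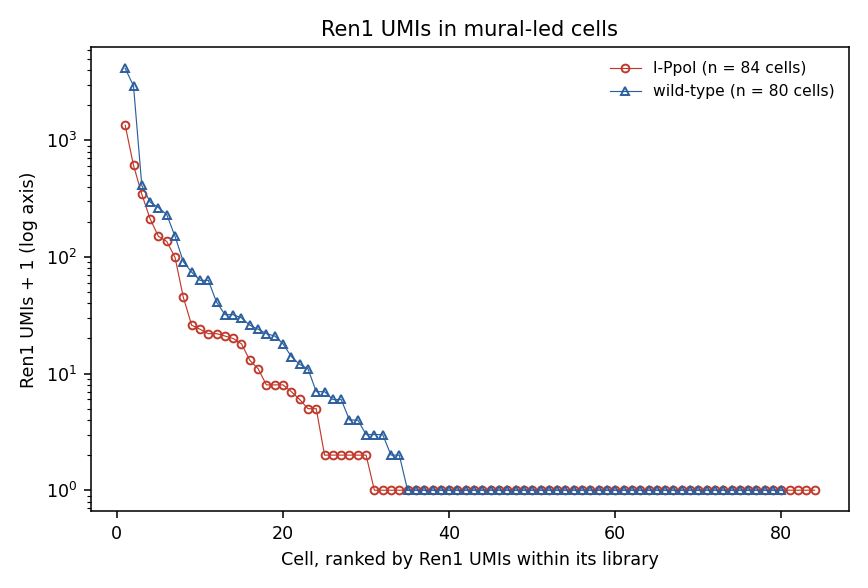
Ren1 UMIs plus 1 (y, log axis) of each mural-led cell, ranked from the highest to the lowest within its library (x). The curves start above 1000 UMIs and reach 0 after 30 I-PpoI and 34 wild-type cells, and the 2 highest wild-type cells, at 4131 and 2932 UMIs, stand above the highest I-PpoI cell at 1345.

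Cells with 10 or more Ren1 UMIs also held more Akr1b7 in both libraries. In the I-PpoI library Akr1b7 was at 79.7 CPM in mural-led cells with no Ren1 UMI, 201 CPM with 1 to 9, 568 CPM with 10 to 99 and 1735 CPM with 100 or more. In the wild-type library the same classes had 159, 108, 616 and 2425 CPM. Ren1 is part of the rule and Akr1b7 is not, and the classes come from the same cells and libraries, so this is a description. Acta2 stayed present in renin-rich cells, with a UMI in 17 of 17 cells with 10 or more Ren1 UMIs in the I-PpoI library and in 21 of 23 in the wild-type library.

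The other renin cell genes differed little between the libraries. Of 15 genes on the list 10 were measured in mural-led cells, none was past 2-fold and the median log2 ratio was -0.26. Over all members 2 of 10 were 2-fold lower, beside 6.59% of all genes, none was 2-fold higher and the median was -0.85. Akr1b7 had a ratio of 0.771 (0.629 to 0.942). Gnas, the stimulatory G protein subunit that raises cyclic AMP, which drives renin release, had 1083 and 1590 CPM with a ratio of 0.681 (0.607 to 0.765). Gjc1, the gap junction protein connexin 45, was the highest of the measured genes at 1.46 (1.09 to 1.96), and Gja4, connexin 37, had a ratio of 0.946 (0.67 to 1.33).

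Immediate early genes, which encode transcription factors switched on within minutes of a stimulus and also during tissue dissociation, had the highest median I-PpoI over wild-type ratio of the lists of mural-led genes. In mural-led cells 16 of 18 genes of the immediate early and heat shock list were measured, 11 were 2-fold or more higher in the I-PpoI library and none was 2-fold lower, beside the 4.33% and 4.47% of all genes. Their median log2 ratio was 1.84, and 1.03 over the 10 genes with at least 100 UMIs. It was 0.76 over the 9 genes measured when all barcodes were thinned to 1000 UMIs and the cells chosen again. Over all members 12 of 17 were 2-fold higher, beside 11.1% of all genes, and the median was 1.41.

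Fos had 600 UMIs in 40 of 84 mural-led cells of the I-PpoI library and 32 UMIs in 19 of 80 of the wild-type library. The highest cell stood at 9057 CPM in the I-PpoI library and at 607 CPM in the wild-type library, and the median cell of each was at 0. The sums were 1348 and 67.9 CPM, a ratio of 19.9 (13.9 to 29.3). Over all members it was 3.84 (3.3 to 4.51). Junb had 881 and 82.8 CPM with a ratio of 10.6 (7.65 to 15.2), Egr1 had 222 and 27.6 CPM with 8.06 (4.51 to 15.7), and Nr4a1 had 200 and 19.1 CPM with 10.5 (5.28 to 23.6). Atf3 had 70 UMIs in 15 I-PpoI cells and 1 UMI in the wild-type library. Jun and Jund had lower ratios of 3.72 and 1.89.

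These genes were also higher outside the mural cells. In all other kept barcodes the Fos ratio was 7.96, the Junb ratio 7.28 and the Nr4a1 ratio 9.67. After thinning to 1000 UMIs, the share with a Fos UMI was 34.1% (24 to 45.4) among I-PpoI and 6.41% (2.11 to 14.3) among wild-type mural-led cells, where leukocytes, which express Fos themselves, had 56.9% and 17.5%. Before thinning the mural-led shares were 47.6% and 23.8%. The part of dissociation, of the leukocyte-rich suspension and of free RNA in this difference was not tested. Leukocytes with Ptprc made up 47.8% of kept I-PpoI barcodes and 9.57% of kept wild-type barcodes.

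The heat shock genes of the same list lay on both sides of 1. Hspa1a had a ratio of 2.22 (1.63 to 3.04), Hspb1 of 1.26 (1.1 to 1.43), Hspa8 of 0.839 (0.716 to 0.983) and Hsp90aa1 of 0.677 (0.563 to 0.813) in mural-led cells.

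Outside that list, genes were ranked by lower bound if I-PpoI mural-led cells held more CPM of them than other I-PpoI barcodes. The highest were Serpina3n, Gm47283, Gm12840, Rasd1, Itih4, Cebpd, Stmn1, Btg2, Adamts5 and Klf2. Mgp, given below, was not ranked, at 3140 CPM against 3522 in other barcodes. Serpina3n, a serine protease inhibitor of the acute phase, had 84 UMIs in 16 I-PpoI cells and none in wild-type cells, which is at least 29.7-fold higher when the wild-type count is set to the floor of 3 UMIs. In other barcodes its ratio was 40.6. Rasd1, a small G protein induced by glucocorticoids, had a ratio of 9.13 (5.43 to 16.4), and Cebpd, a transcription factor of the acute phase, had 8.31 (5.2 to 14). Btg2, an antiproliferative gene and p53 target, had 1014 and 216 CPM with a ratio of 4.68 (3.77 to 5.86), in 48 I-PpoI and 44 wild-type cells. Adamts5, a protease that cleaves aggrecan and versican, had 4.19 (3.21 to 5.54). Klf2, a Krüppel-like factor, had 4.24 (3.09 to 5.9), against 1.33 in other barcodes. The ratios in other barcodes were 3.45 for Rasd1, 5.67 for Cebpd, 4.98 for Btg2 and 4.71 for Adamts5. They were 6.95 for Gm47283 and 32.2 for Gm12840. Itih4, Gm47283 and Gm12840 had ratios of 20.7, 13.8 and 15.1 on 65 or fewer I-PpoI UMIs each. Stmn1 also met the naming rule with a ratio of 9.4, but 65 of its 71 I-PpoI UMIs came from 1 cell. Socs3, the feedback inhibitor of cytokine signalling, had 62 UMIs in 27 I-PpoI cells and 4 in 3 wild-type cells, and its ratio in other barcodes was 22.2.

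**Figure D4:**
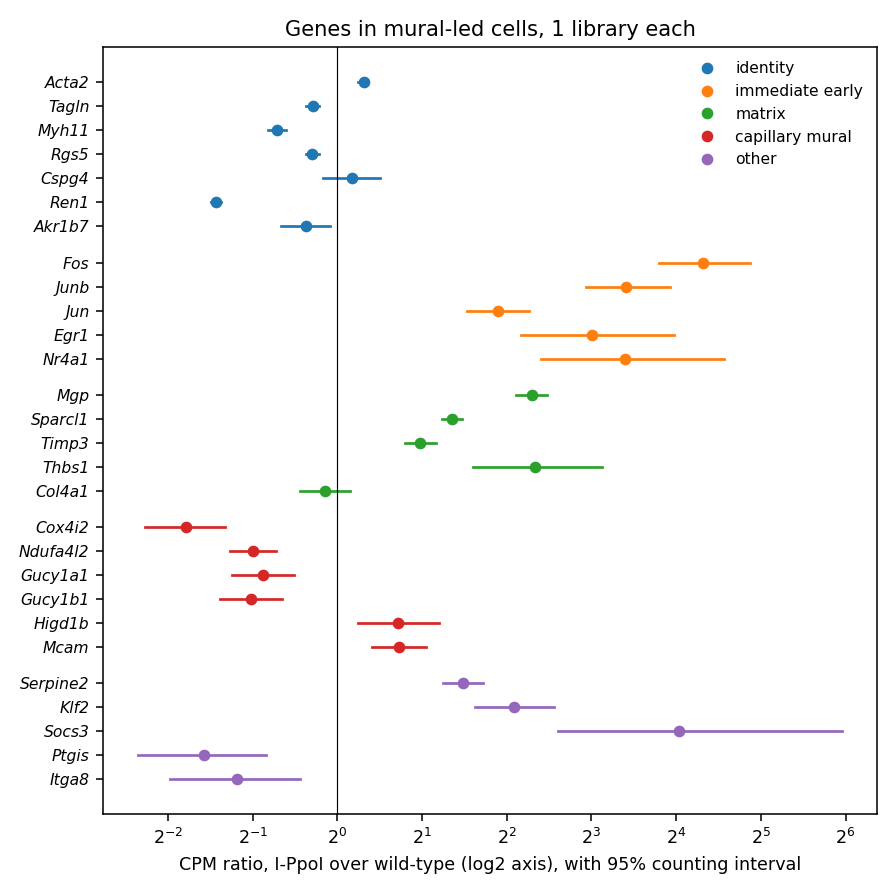
CPM ratio, I-PpoI over wild-type (x, log2 axis), of genes grouped by role (y, colours) in the 84 I-PpoI and 80 wild-type mural-led cells, with exact 95% counting intervals. Fos, Junb, Egr1 and Nr4a1 lie between 8 and 20, Mgp at 4.9, and Cox4i2, Ptgis and Ren1 lie lowest at 0.29, 0.337 and 0.37.

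Several matrix genes of the vessel wall were higher in the I-PpoI library. Mgp (chromosome 6, 136872435 to 136875823, minus strand), matrix Gla protein, an inhibitor of arterial calcification, had a median of 713 CPM per I-PpoI mural-led cell and 0 per wild-type cell, with highest cells at 24784 and 4726 CPM. The sums were 3140 and 641 CPM, a ratio of 4.9 (4.32 to 5.57), and 2.95 (2.62 to 3.33) over all members. A single cell held 434 of the 1397 I-PpoI UMIs. Mgp was far higher in collagen fibroblasts, at 30697 and 10696 CPM, and its ratio in other barcodes was 22.5. After thinning, 48.8% of I-PpoI mural-led cells (37.6 to 60.1) held an Mgp UMI against 3.04% of I-PpoI leukocytes, and 26.9% of wild-type cells (17.5 to 38.2) against 0 of 302 wild-type leukocytes, which allows up to 0.993%. Before thinning these mural-led shares were 72.6% and 42.5%.

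Sparcl1, a secreted matricellular protein, was higher across most cells. It had a UMI in 83 of 84 I-PpoI and 72 of 80 wild-type mural-led cells, with medians of 3329 and 1347 CPM, and its sums of 4652 and 1821 CPM gave a ratio of 2.55 (2.36 to 2.77). Fibroblasts had less of it, at 675 and 830 CPM. All other kept barcodes held 102 and 31.1 CPM, a ratio of 3.28. Serpine2, a protease inhibitor on the mesangial list, had medians of 792 and 279 CPM and a ratio of 2.8 (2.38 to 3.29). Its ratio in other barcodes was 15.5, and collagen fibroblasts held 2096 CPM in the I-PpoI and 184 CPM in the wild-type library. Timp3, the tissue inhibitor of metalloproteinases bound to matrix, had a ratio of 1.97 (1.74 to 2.25). Timp1 had 29 UMIs in 13 I-PpoI cells and none in wild-type cells, at least 10.2-fold higher, and its ratio in other barcodes was 228.

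Basement membrane genes were close between the libraries apart from Sparcl1. Of 17 genes on the list of basement membrane and mesangial matrix 14 were measured in mural-led cells, Sparcl1 alone was 2-fold higher, none was 2-fold lower and the median log2 ratio was 0.34. Over all members 3 of 14 were 2-fold higher, 1 was 2-fold lower and the median was -0.15. Of all genes 4.33% were 2-fold higher and 4.47% 2-fold lower in mural-led cells, and 11.1% and 6.59% over all members. Col4a1, a chain of type IV collagen, had 405 and 448 CPM with a ratio of 0.903 (0.736 to 1.11), and Col4a2 had 371 and 263 CPM with 1.41 (1.11 to 1.79). Lamb2, the laminin beta 2 chain, had 1.44 (1.17 to 1.78) and Fn1, fibronectin, 1.29 (0.663 to 2.56). Of 24 fibrillar matrix and crosslinking genes 11 were measured, Mgp and Fbn1 were 2-fold higher and Eln and Fbln5 were 2-fold lower, with a median of 0.31. Over all members 2 of 15 were 2-fold higher and 3 were 2-fold lower, with a median of -0.19. The collagen genes used to choose the members are not among these, and levels of fibrillar collagen cannot be read in cells kept for having little of it.

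Of 15 genes of the TGF-beta and stretch response list, 10 were measured in mural-led cells, 3 were 2-fold higher and none was 2-fold lower, beside the 4.33% and 4.47% of all genes, and the median log2 ratio was 0.43. Over all members 2 of 14 were 2-fold higher, beside 11.1% of all genes, none was 2-fold lower and the median was 0.07. The 3 were Thbs1, thrombospondin 1, at 5.02 (3.03 to 8.72), Cyr61 at 3.03 (2.3 to 4.03) and Ctgf at 2.44 (1.97 to 3.05), the last 2 being matricellular targets of YAP signalling. Smad7, the inhibitor that TGF-beta itself induces, had 85.4 and 161 CPM with a ratio of 0.529 (0.349 to 0.792). The receptor Tgfbr2 had a ratio of 1.09 (0.646 to 1.85). Thbs1, Cyr61 and Ctgf also had ratios of 6.26, 3.33 and 8.08 in other barcodes.

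Of 13 pericyte genes 11 were measured in mural-led cells, with Kcnj8 2-fold higher and Cox4i2 and Gucy1b1 2-fold lower, beside the 4.33% and 4.47% of all genes, and a median log2 ratio of -0.04. Over all members 4 of 11 were 2-fold lower, beside 6.59% of all genes, none was 2-fold higher and the median was -0.85. Cox4i2, a hypoxia-responsive subunit of cytochrome c oxidase, had 110 CPM in the I-PpoI and 380 CPM in the wild-type library, in 32 and 61 cells, a ratio of 0.29 (0.207 to 0.4). Ndufa4l2, a mitochondrial protein induced by hypoxia, had 0.502 (0.414 to 0.606). The subunits of soluble guanylate cyclase, the receptor for nitric oxide, were both lower, with Gucy1a1 at 0.544 (0.421 to 0.699) and Gucy1b1 at 0.495 (0.382 to 0.637). Kcnj8, a subunit of the ATP-sensitive potassium channel, was higher at 2.6 (1.25 to 5.81) on 27 and 11 UMIs. Higd1b had 1.64 (1.18 to 2.29) and Mcam, the adhesion molecule CD146, had 1.66 (1.33 to 2.07). Cspg4, the proteoglycan NG2, had 344 and 306 CPM with a ratio of 1.13 (0.89 to 1.42).

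Mesangial genes outside the rule gave 9 measured of 14 in mural-led cells, with a median log2 ratio of -0.47. Serpine2 was 2-fold higher and Prkg2 2-fold lower, beside 4.33% and 4.47% of all genes. Over all members, where tubule-marker barcodes held 50.5% of the I-PpoI UMIs, 7 of 10 were 2-fold lower and 1 was 2-fold higher. The shares of all genes there were 6.59% and 11.1%, and the list median was -1.18. Gata3, a transcription factor of mesangial cells, had 26 and 38 UMIs with a ratio of 0.725 (0.422 to 1.22). Hopx had 0.542 (0.461 to 0.636) and Igfbp5, a binding protein for insulin-like growth factors, 0.721 (0.657 to 0.79). Itga8 itself had 49.4 and 112 CPM with a ratio of 0.44 (0.255 to 0.735), on 22 and 53 UMIs. Its direction turned, to a log2 ratio of 0.23, when all barcodes were thinned to 1000 UMIs and the members then chosen again. That setting gave 91 I-PpoI and 78 wild-type mural-led cells, so the cells changed along with the depth. With the original cells thinned instead, 4.88% in the I-PpoI and 8.97% in the wild-type library held an Itga8 UMI. Before thinning these shares were 17.9% and 32.5%, and thinned leukocytes held 0.567% and 0.993%.

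Of 19 vasoactive receptor and channel genes 12 were measured in mural-led cells, with a median log2 ratio of -0.12. Npr3 was 2-fold higher and Ptgis 2-fold lower, beside 4.33% and 4.47% of all genes. Over all members 6 of 12 were 2-fold lower, beside 6.59% of all genes, none was 2-fold higher and the median was -1.01. Agtr1a, the angiotensin receptor of mural cells, had 187 and 270 CPM with a ratio of 0.692 (0.518 to 0.92). The endothelin receptors Ednra and Ednrb had 0.975 (0.739 to 1.28) and 1.11 (0.892 to 1.38). Ptgis, prostacyclin synthase, had 47.2 and 140 CPM with 0.337 (0.196 to 0.558). Npr3, the clearance receptor of natriuretic peptides, had 26 and 6 UMIs with a ratio of 4.59 (1.85 to 13.6), and the reverse direction over all members at 0.414.

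Of the PDGF and Notch genes outside the rule, 8 of 11 were measured in mural-led cells. Hes1, a Notch target that other signals also induce, was 2-fold higher at 2.24 (1.85 to 2.71), while Heyl, a Notch target of vascular smooth muscle, was 2-fold lower at 0.429 (0.229 to 0.769), and the list median was -0.08. In mural-led cells 4.33% and 4.47% of all genes were 2-fold higher and 2-fold lower. Over all members 1 of 9 was 2-fold lower, beside 6.59% of all genes, none was 2-fold higher and the median was -0.46. Jag1 and Hey2 had ratios of 0.986 (0.719 to 1.35) and 0.982 (0.657 to 1.46). Of the rule genes themselves, Notch3 had 0.847 (0.735 to 0.975) and Rgs5 0.814 (0.771 to 0.859), whose levels in members depend on the rule. Of 19 mural transcription factors 16 were measured, with Klf2 and Klf4 2-fold higher, Heyl 2-fold lower and a median of -0.10. Over all members 6 of 18 were 2-fold lower and 2 were 2-fold higher, beside 6.59% and 11.1% of all genes, and the median was -0.86. Myocd and Srf, the activators of the contractile program, had 0.92 (0.559 to 1.51) and 1.01 (0.529 to 1.93). Nr2f2 had 1.42 (1.23 to 1.64) and Ebf1 0.873 (0.775 to 0.983).

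**Figure D5:**
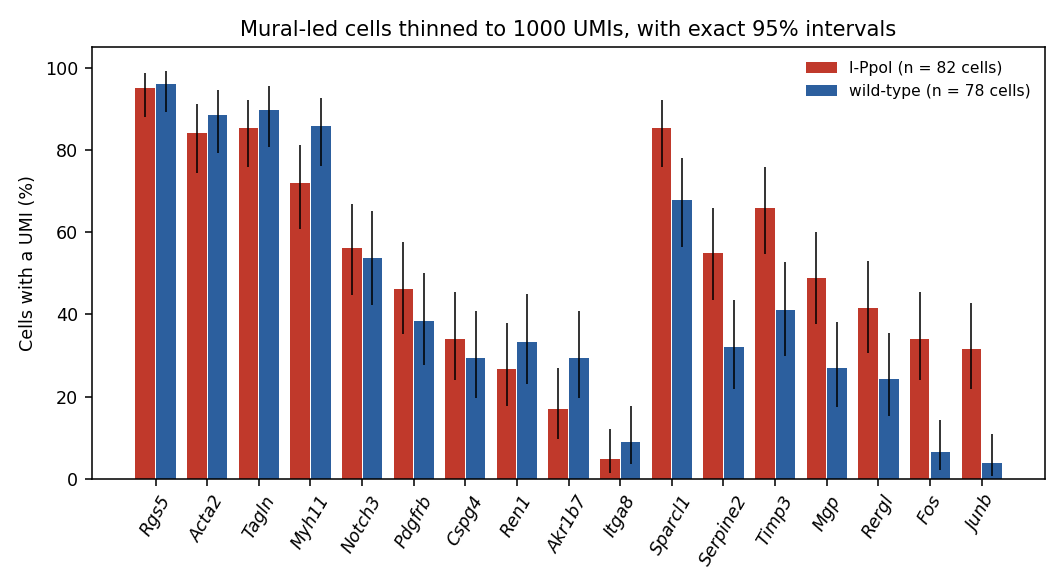
Share of mural-led cells with a UMI of each gene (y, percent) after thinning to 1000 UMIs per cell, in 82 I-PpoI and 78 wild-type cells, with exact 95% intervals as lines. Fos, at 34.1% and 6.41%, and Junb differ most, while Rgs5, at 95.1% and 96.2%, and Acta2 have overlapping intervals.

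Genes lower in the I-PpoI mural-led cells included matrix and regulatory genes. Ogn, osteoglycin, had 11 UMIs in 6 I-PpoI cells and 145 UMIs in 34 wild-type cells, a ratio of 0.0803 (0.0392 to 0.148), and a ratio of 1.6 in other barcodes. Peg3, an imprinted zinc finger gene, had 0.169 (0.0965 to 0.279), in 14 and 43 cells. Id2, an inhibitor of helix-loop-helix factors, had 0.243 (0.161 to 0.356), Tesc 0.234 (0.139 to 0.379) and Nrgn 0.171 (0.0781 to 0.336). Gm11627, 4631405J19Rik and Tppp3 had ratios between 0.109 and 0.118. Igfbp3 and Fbln5 also met the rule, but 1 wild-type cell held nearly all of their UMIs. Gt(ROSA)26Sor, the noncoding transcript of the Rosa26 locus, where transgenes are often placed, had no UMI in I-PpoI members and 33 UMIs in 24 wild-type mural-led cells, a ratio of at most 0.0963 against the floor of 3 UMIs. In other barcodes it had 0.594 and 21.9 CPM.

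Named by the same rule over all members, the genes higher in the I-PpoI library included Umod, Slc12a1 and Spp1, which are on the tubule marker lists. Spp1, osteopontin, had 27352 and 387 UMIs in all members but 103 and 3 UMIs in mural-led cells, which were set apart partly by this gene. Umod, uromodulin of the thick ascending limb, had 862 UMIs, of which 856 came from 1 barcode, and Slc12a1, the sodium-potassium-chloride cotransporter of the same segment, had 126 from 1 barcode. Defb1, Gc, AC135964.2, Sult1d1, C3, Aoc1, Sox9, Cda and Serpina3n, which are on none of the tubule marker lists, made up the rest. C3, the central complement component, had 1203 UMIs in all I-PpoI members and 1 in mural-led cells. The genes lower over all members included Msmp, Igfbp3, Gt(ROSA)26Sor, Ogn, Cxcl10, Fbln5, Lsp1, Pcp4, 4631405J19Rik, Nrgn and Cxcl12, and all 62 wild-type UMIs of Cxcl10 came from 1 barcode.

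Stress and immune lists in mural-led cells are again set beside the 4.33% of all genes that were 2-fold higher and the 4.47% that were 2-fold lower. Of 6 measured complement and acute phase genes 4 were 2-fold higher, Clu at 4.2 (2.71 to 6.72), Cp at 5.29 (2.17 to 15.6), C1ra at 2.65 (1.23 to 6.18) and Serping1 at 2.09 (1.68 to 2.61), and the median log2 ratio was 1.21. Of 14 S100 and cytoskeletal genes 4 were 2-fold higher with a median of 0.64, among them S100a6 at 1371 and 469 CPM with 2.92 (2.5 to 3.42) and Tmsb10 with 3.18 (2.31 to 4.42). These genes were also higher in other barcodes of the I-PpoI library. The ratios there were 6.29 for Clu, 7.17 for Cp, 3.71 for C1ra, 8.91 for Serping1, 4.62 for S100a6 and 4.55 for Tmsb10. Of 12 p53 targets and cell cycle inhibitors 3 were 2-fold higher and 1 was 2-fold lower with a median of 0.43. Cdkn1a, which encodes p21, had 245 and 142 CPM with a ratio of 1.72 (1.26 to 2.37), in 25 and 9 cells, and 36 of its 109 I-PpoI UMIs came from 1 cell. Cdkn1c, which encodes p57, had 3.21 (2.12 to 4.99), Mdm2 1.41 (0.687 to 2.96) and Bax 0.908 (0.604 to 1.36). In other barcodes the ratios were 5.68 for Cdkn1a, 2.16 for Cdkn1c, 1.18 for Mdm2 and 1.68 for Bax. None of 7 interferon and MHC class I genes was 2-fold higher, and Bst2 and Ifi27 were 2-fold lower at 0.436 (0.216 to 0.834) and 0.414 (0.27 to 0.622). Chemokines were nearly absent, with 1 and 3 UMIs of Ccl2 and none of Ccl7, Cxcl1 or Il6 in mural-led cells, and Cxcl12 had 0.247 (0.0916 to 0.574). None of 17 nuclear oxidative phosphorylation genes was past 2-fold, and their median was -0.32. Over all members the counts 2-fold higher and 2-fold lower were 6 and 0 of 9 complement genes, 6 and 0 of 16 S100 and cytoskeletal genes (median 0.63), 2 and 1 of 16 p53 genes (0.15) and 5 and 1 of 13 interferon and MHC class I genes (0.83). They were 7 and 3 of 11 chemokine and adhesion genes (1.57) and 0 and 0 of 17 oxidative phosphorylation genes (0.18). Of all genes over all members, 11.1% were 2-fold higher and 6.59% 2-fold lower.

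RNA of other cells was found in the mural-led cells of both libraries. The 11 macrophage markers summed to 551 and 132 CPM in mural-led cells, with 10 and 5 of them detected, against 45979 and 5460 CPM in other barcodes, and per cell they ran from 0 to 4209 and from 0 to 2084 CPM. The 8 injured tubule markers summed to 256 and 8.49 CPM, against 15621 and 1397, with Havcr1, Krt18, Krt19 and Cldn1 at 0 in both libraries. The 11 proximal tubule markers went the other way, at 142 and 639 CPM against 3053 and 26443, with Slc34a1 and Lrp2 at 0 in the I-PpoI library. Both tubule lists served to set the mural-led cells apart, so their sums there were capped by that choice. Over all members the injured list stood at 31516 and 692 CPM and the proximal list at 2748 and 1434 CPM. Endothelial markers stood at 418 and 365 CPM against 780 and 2196, and erythroid markers at 31.5 and 21.2 CPM against 1247 and 3243, so for both the order of the libraries was the reverse of that in other barcodes. The part of such RNA in the gene differences above was not tested.

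Variation among the members is described by clusters. Clustering the 189 members without integration gave 6 clusters, which stay unnamed because at most 2 markers of a mural class were among the 10 leading genes of each. The first cluster (27 I-PpoI and 4 wild-type barcodes) was led by Igfbp3, Fbln5 and Higd1b, where 1 wild-type barcode held 121 of the 132 wild-type UMIs of Igfbp3 over all members and 1 held 38 of the 42 of Fbln5, and the second (25 and 1) by Mgp, Rasd1 and Klf2. A cluster of 11 and 24 barcodes had Sorbs2 and Cnn1 among its leading genes and held 6103 CPM of Myh11. A cluster of 19 and 29 barcodes was led by Ren1 with Akr1b7 among its leading genes and had 33762 CPM of Ren1. A cluster of 13 and 3 barcodes held tubule-marker barcodes alone, with Spp1 at 53250 CPM, and the last cluster (5 and 28) was led by Ifitm1, Ndufa4l2 and Ephx3. Several clusters came mostly from 1 library, so their sizes are not compared between groups.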

How the data were processed

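Single-cell suspensions of kidney cortex were measured in 1 I-PpoI and 1 wild-type library. The matrices deposited by the authors hold raw UMI counts for each gene in each barcode, made with Cell Ranger on an mm10 reference, per the labels, which name version 3.1, while the file headers name 6.0.2. Seurat version 3 is also named in the labels. Members and gene lists were chosen with earlier results of these data known. UMIs were summed over members and expressed as CPM of the member total (898363 and 583829 UMIs). Sums have exact Poisson, ratios exact conditional binomial and shares exact Clopper-Pearson intervals of 95%. No p-values were computed. Genes needed 30 UMIs over both libraries to be counted past 2-fold, 29 lists were used, and 0.5 counts were added for log2 ratios. Genes at 0 in 1 library are bounded by a floor of 3 UMIs. Named genes are those with more CPM in members than in other barcodes, without mitochondrially encoded, ribosomal protein and haemoglobin genes, ranked by the interval bound nearest 1, with the first 12 each way, plus genes of the lists and the 12 furthest above other barcodes. Some genes are not reported here. Doublets were scored with Scrublet in scanpy 1.11.5, whose automatic threshold marked 0.733% and 0.155% of barcodes, so no barcode was removed, and an alternative drops the highest 4% of scores. Free RNA was not removed. Clusters used 1000 variable genes, 15 components, 10 neighbours and Leiden resolution 0.5. On counts simulated with Poisson error for the 4389 genes of mural-led cells, intervals held the true ratio in 96.2% of unchanged genes. They lay above 1 in 85% of genes changed 2-fold and 100% changed 4-fold, and 49% of the former reached a ratio of 2. The simulation had the error that the intervals assume and no variation between cells, so it checks the calculation only. Coordinates are from GENCODE M21. Python 3.11.15, numpy 2.4.6, scipy 1.17.1, pandas 2.3.3 and matplotlib 3.10.9 were used.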

Additional observations from a re-analysis of the deposited data

How the results depend on the processing

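No paired analysis was possible because each group has 1 library. In these alternatives, thinning to 1000 UMIs came before the choice of members. It gave 91 I-PpoI and 78 wild-type mural-led cells, so it changed the cells as well as the depth. Of the main summaries, 95 values under the alternatives stayed within their limits, 35 moved and 2 turned; of single genes and lists, 1298 stayed, 248 moved and 16 turned. The share ratio ran from 0.733 to 0.956 over all members. Over all members, 729 higher and 433 lower became 1597 and 897 with at least 10 UMIs per gene, 212 and 135 with 100, 3725 and 2207 with no minimum, 57 and 43 after thinning to 1000 UMIs, 471 and 273 with at least 5 UMIs of the rule genes, and 190 and 196 without the tubule-marker barcodes. In mural-led cells 190 and 196 became 717 and 732, 57 and 40, 2475 and 2426, and 57 and 42 under the first 4 of these, and 312 lower in the mean of the cells' own CPM.

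The contractile median over all members (-0.91) was -0.12 without tubule-marker barcodes, -0.54 with at least 5 rule UMIs, -0.10 in the mean of cells and -0.09 after thinning. The immediate early median (1.41) was 1.84 without tubule-marker barcodes, 1.75 in the mean of cells and 0.80 after thinning, and in mural-led cells 1.84 became 0.76 after thinning and 1.03 with at least 100 UMIs. The Ren1 log2 ratio over all members (-2.14) was -1.43, -1.77, -1.52 and -1.53 in the same order, -2.25 with a mitochondrial limit of 25%, and 0.11 without the top 4% of doublet scores. In mural-led cells (-1.43) it was -1.49 with that limit, -1.37 with median ratio scaling, -1.57 after thinning and 0.82 without the top scores.

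Other directions turned as well. Over all members Acta2 turned to 0.30 without tubule-marker barcodes, 0.21 in the mean of cells and 0.42 after thinning, Npr3 to 2.11 and 1.30 under the first 2, and Itga8 to 0.26 after thinning (0.23 in mural-led cells). The metallothionein and redox median turned to -0.21, -0.05 and -0.58 under the same 3, PDGF and Notch to 0.06 and 0.45 under the last 2, mural transcription factors to 0.07 after thinning, and endothelial markers to 0.30 without tubule-marker barcodes. In mural-led cells the chemokine median turned to 0.02 with median ratio scaling, and Stmn1 to -0.26 without the top doublet scores. The cause was not tested.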
